A study of Mus musculus with 6 samples.

Results

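The 9 genes described here encode ligands, receptors and an inhibitor of interleukin-6 (IL-6) family signalling: the ligands Il6, Lif, Osm and Ctf1, the receptor chains Il6st, Il6ra, Lifr and Osmr, and the inhibitor Socs3. They were taken by gene name, and each had exactly 1 row among the 55401 genes of the deposited table, so all 9 were found. The libraries are poly(A) RNA-seq of hearts from C57BL/6 mice aged 6 to 8 weeks. The control group held 3 hearts, and the other 3, labelled AngII induced, came from mice given angiotensin II (Ang II), a peptide hormone that constricts vessels and raises blood pressure. Its dose, route and duration and the sex of the mice are not given in the sources used here, and no further genotype or agent is named for either group.

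Most IL-6 family cytokines act through receptors that contain gp130, the product of Il6st, which carries the signal into the cell. IL-6 binds first to the non-signalling chain Il6ra, whereas leukaemia inhibitory factor (Lif), oncostatin M (Osm) and cardiotrophin-1 (Ctf1) bring gp130 together with Lifr or Osmr. The receptors activate JAK kinases and the transcription factor STAT3, which induces Socs3, and the Socs3 protein then blocks gp130 in a negative feedback. In the heart the pathway is known for cardiomyocyte growth and survival under pressure load and for fibroblast and immune cell responses.

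None of the 7 genes tested passed the test between Ang II and control hearts, and Il6 and Lif had too few counts to be tested. The receptor genes made up most of the family's transcripts. Socs3 was the member with the smallest p: it stood at 10.8 ± 4.75 CPM in control and 4.96 ± 1.54 CPM after Ang II (mean ± SD, n = 3 each), and 1 control heart was as low as the Ang II hearts. Il6 had no counts in most hearts of either group. Lif had none in most Ang II hearts, though its highest count in any heart, 23, was in Ang II replicate 1. Osm stayed at 18 counts or fewer in every heart. CPM here means counts scaled to a common library size by edgeR, used to compare hearts, whereas FPKM, the authors' value per length, is used to compare genes.

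Of 9 members, 7 passed the filter on low counts and were tested; Il6 and Lif did not pass. By the quasi-likelihood test of edgeR, with p-values adjusted by the Benjamini-Hochberg method, 0 of 7 were called at an adjusted p under 0.05, against 6 of all 16759 genes tested (0.0358%). At p under 0.05 before adjustment stood 1 of the 7, Socs3, against 7.51% of all genes tested. DESeq2 also called 0 of 7, with 276 of 16759 genes called overall (1.65%). The median log2 change of the 7 was 0.04, beside 0.01 over all genes tested.

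The libraries summed to between 51202916 and 63564869 estimated counts. Mitochondrially encoded genes took 35.8% to 37.4% of the counts after Ang II and 37.3% to 47.6% in control hearts, the highest in control replicate 1. Ang II replicate 1 stood apart from the rest, with a mean correlation with the other 5 libraries of 0.906 against 0.939 to 0.945 for the others. Without it, edgeR called 129 of 17661 genes (0.73%) and again 0 of the 7 members, and at p under 0.05 before adjustment stood 1 member, Socs3, against 15.4% of all genes. The count of 6 genes over the whole table fell to 0 when any 1 control heart or Ang II replicate 3 was left out, and to 2 without Ang II replicate 2. The 7 cardiomyocyte markers of the fixed list summed to 35289 to 40332 CPM in control and 36076 to 46029 CPM after Ang II, so the labelled tissue carried its defining transcripts. Over the adipocyte, Schwann cell, lymphocyte, smooth muscle and mesothelial marker lists 0 genes were called by edgeR or DESeq2. Some sums were separate between the groups. Adipocyte markers summed to 2.56 to 3.29 CPM in control and 0 to 1.14 CPM after Ang II, with Lep at 0 throughout. Schwann cell markers summed to 6.77 to 7.11 and 3.88 to 5.0 CPM. Of the Schwann cell markers tested, 2 of 3 were lower at p under 0.05 before adjustment, against 7.51% of all genes. So were 1 of 4 adipocyte and 1 of 2 mesothelial markers tested, and 0 of the lymphocyte and smooth muscle markers. Lymphocyte markers summed to 1.71 to 2.78 CPM in control and 1.58 to 1.69 CPM after Ang II. All 4 tested had a log2 change below 0, as had 8222 of all 16759 genes tested. Smooth muscle and pericyte markers summed to 566 to 661 and 466 to 612 CPM and mesothelial markers to 2.78 to 7.15 and 2.87 to 3.59 CPM, which overlapped.

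The sequences before the starts of Il6 and Socs3 are shown because Il6 is a textbook target of NF-κB, a pathway named in the series title, and Socs3 is the feedback gene that STAT3 induces. Both are from RefSeq on GRCm38.p6 and hold the 250 bases before the annotated start, 5′ to 3′ on the gene's strand, with motif matches in capitals. The Il6 window is chr5:30012864-30013113 (plus strand) and overlaps no annotated exon. The Socs3 window is chr11:117969367-117969616 (minus strand) and overlaps an exon of a Socs3 transcript in GENCODE M21.
Il6: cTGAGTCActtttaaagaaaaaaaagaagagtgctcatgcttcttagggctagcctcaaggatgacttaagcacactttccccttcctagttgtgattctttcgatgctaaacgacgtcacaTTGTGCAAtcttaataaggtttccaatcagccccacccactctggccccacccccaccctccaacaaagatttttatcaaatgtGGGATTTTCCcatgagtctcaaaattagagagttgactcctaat
Socs3: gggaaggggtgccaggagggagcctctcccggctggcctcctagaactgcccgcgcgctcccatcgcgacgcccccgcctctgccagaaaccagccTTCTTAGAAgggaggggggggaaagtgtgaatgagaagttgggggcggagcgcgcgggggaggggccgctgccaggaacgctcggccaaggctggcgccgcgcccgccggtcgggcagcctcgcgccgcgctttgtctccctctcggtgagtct
The Il6 capitals mark, in order, an AP-1 match TGAGTCA at -249 to -243, a C/EBP match TTGTGCAA at -128 to -121 and a κB match GGGATTTTCC at -44 to -35. The Socs3 capitals mark 1 STAT match, TTCTTAGAA, at -154 to -146, counting -1 as the last base before the start. The 5 motifs were searched on both strands, and no match overlapped another. Among 32536 distinct windows of this length, 7.04% held the STAT motif, written TTCNNNGAA. The AP-1 motif, written TGANTCA, was held by 6.73% of windows and the κB consensus by 7.28%. The C/EBP motif, written TTGCNNAA, was held by 9.57%, and 12.3% held a TATA box, written TATAAA. RefSeq windows were matched for 8 of the 9 members, 9 windows in all, and matches were found for 3 members. The other was Lif, with an AP-1 match (TGACTCA) and a κB match (GGGACGCCCC). These are matches of letters, and no binding was measured.

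Receptor chains came first in level. Il6st (ENSMUSG00000021756; GRCm38 chromosome 13, 112464070 to 112510086, plus strand), which encodes the shared signal-transducing chain gp130, had the highest mean FPKM of the 9 in both groups. Its FPKM was 4.50, 7.95 and 5.67 in control replicates 1, 2 and 3 and 4.51, 7.23 and 7.48 in Ang II replicates 1, 2 and 3. Replicate 1 was the lowest heart in each group, and the groups overlapped. On the CPM scale Il6st stood at 67.8, 83.7 and 66.4 in control and 64.6, 79.0 and 80.2 in Ang II hearts. The log2 change was 0.04 (SE 0.17, 95% interval -0.36 to 0.43; edgeR's adjusted p = 0.959), so the interval ran from a fold of 0.781 to 1.35.

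Il6ra (ENSMUSG00000027947; chromosome 3, 89864059 to 89913196, minus strand) encodes the chain that binds IL-6 itself and was the lowest of the 4 receptor genes. Its FPKM was 0.171, 0.587 and 0.359 in control and 0.212, 0.443 and 0.396 in Ang II hearts. Control hearts spanned 3.43-fold in FPKM and 2.39-fold in CPM, more than the distance between the group means of 3.37 ± 1.41 and 3.16 ± 0.72 CPM. The log2 change was -0.10 (SE 0.36, 95% interval -0.95 to 0.76; edgeR's adjusted p = 0.955), and it was 0.07 without Ang II replicate 1. The antisense gene Gm42809 shares 242 bp of exon with Il6ra and had 0 counts in every library.

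Il6st stood far above its partner Il6ra in every heart: the FPKM of Il6st was 26.3, 13.5 and 15.8 times that of Il6ra in control and 21.2, 16.3 and 18.9 times in Ang II hearts. These ratios overlapped between the groups. Il6st also made up 57.2% to 60.4% of the summed FPKM of the 4 receptor genes in control hearts and 60.1% to 67.1% in Ang II hearts. Il6ra made up 2.26% to 4.46% and 2.83% to 3.82%.

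Lifr (ENSMUSG00000054263; chromosome 15, 7090614 to 7197489, plus strand) encodes the chain that pairs with gp130 for LIF and cardiotrophin-1. Its CPM was 25.3, 27.5 and 27.3 in control and 15.2, 24.9 and 16.8 in Ang II hearts. Ang II replicates 1 and 3 were the low ones, replicate 2 lay just under the lowest control, and the groups did not overlap. Non-overlapping groups were seen for 1 of the 7 members tested and for 17.2% of all genes tested. Lifr had a log2 change of -0.49 (SE 0.21, 95% interval -0.99 to 0.01), an unadjusted p of 0.0543 and edgeR's adjusted p = 0.665. Without Ang II replicate 1 the change was -0.35 (SE 0.18, edgeR adjusted p = 0.416). On the FPKM scale, which does not carry edgeR's scaling, the groups overlapped, at 1.73, 2.69 and 2.40 in control and 1.09, 2.34 and 1.62 in Ang II hearts.

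Fibroblast and endothelial markers are given beside Lifr, since both cell types of the heart can carry LIF receptors. The 8 fibroblast markers summed to 542 to 576 CPM in control hearts, to 285 CPM in Ang II replicate 1 and to at most 584 CPM in the other Ang II hearts; 0 of 8 were called by edgeR and 3 stood lower at p under 0.05 before adjustment. The low fibroblast sum of Ang II replicate 1 came mostly from Dcn, chosen after its values were seen, at 69.2 CPM there against 279 to 297 CPM in control and 309 and 327 CPM in the other Ang II hearts. Every fibroblast marker of the list was below every control heart in Ang II replicate 1. Col1a2 in that heart was at 52.5 CPM, beside 54.8 to 59.8 CPM in control hearts. Lum was at 24.1 CPM there against 31.8 to 35.0 CPM in control, and Postn at 7.27 against 18.5 to 20.5 CPM. The 7 endothelial markers summed to 729 to 764 CPM in control and 564 to 654 CPM after Ang II, with 0 of 7 called by edgeR, 3 lower at p under 0.05 before adjustment and 2 called lower by DESeq2. Over all genes tested, 7.51% stood at p under 0.05 before adjustment by edgeR, and DESeq2 called 1.65%. For 5 of the 7 endothelial markers the groups did not overlap, against 17.2% of all genes tested. Without Ang II replicate 1 all 7 were lower at p under 0.05 before adjustment, against 15.4% of all genes. None of these markers was at 0 in all hearts, and their part in the Lifr values was not tested. In bulk heart tissue, fewer cells of a type and less RNA per cell cannot be told apart.

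Osmr (ENSMUSG00000022146; chromosome 15, 6813577 to 6874969, minus strand) encodes the chain that pairs with gp130 for oncostatin M. It lies 215.6 kb from Lifr on the opposite strand. Its CPM was 19.1, 22.3 and 18.9 in control and 26.4, 19.0 and 19.5 in Ang II hearts. Ang II replicate 1 was the highest of the 6, and the other Ang II hearts lay within the control range. The log2 change was 0.10 (SE 0.18, 95% interval -0.33 to 0.54; edgeR's adjusted p = 0.902) and -0.06 (SE 0.11) without Ang II replicate 1.

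The balance of receptor chains was compared within hearts through 5 FPKM ratios, 4 of receptor chains and 1 of Il6st to Socs3. Il6st was 2.60, 2.96 and 2.36 times Lifr in control and 4.13, 3.08 and 4.63 times in Ang II hearts, the one ratio whose groups did not overlap. Its exact two-sided permutation p was 0.1, the smallest that 3 against 3 allows, and 0.333 adjusted over the 5 ratios. The ratio of Lifr to Osmr was 1.49, 1.39 and 1.62 in control and 0.647, 1.47 and 0.973 in Ang II hearts, and the groups overlapped through Ang II replicate 2 (exact permutation p = 0.2). A ratio shows unequal levels of the chains, not which chain moved.

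**Figure D1:**
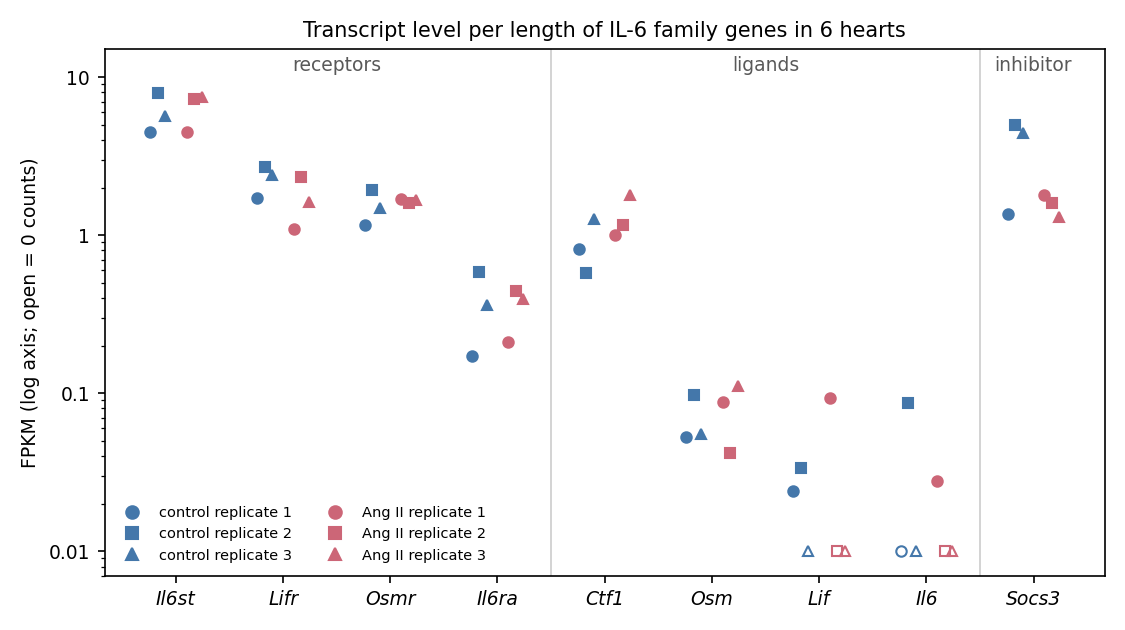
FPKM (log axis) of each gene in each of the 6 hearts, control in blue and Ang II in red, with the symbol giving the replicate number; open symbols at the bottom mark 0 counts. Il6st lies highest, between 4.50 and 7.95 FPKM, and Osm, Lif and Il6 lie at or below 0.111 FPKM in every heart.

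Ligand transcripts were scarce except for Ctf1. Ctf1 (ENSMUSG00000042340; chromosome 7, 127712736 to 127718192, plus strand) encodes cardiotrophin-1, a cytokine known for inducing cardiomyocyte hypertrophy. Its FPKM was 0.813, 0.579 and 1.27 in control and 0.997, 1.17 and 1.79 in Ang II hearts. Its CPM was 2.01, 1.02 and 2.47 in control and 2.35, 2.10 and 3.18 in Ang II hearts. Control replicate 2 was the lowest and Ang II replicate 3 the highest of the 6, and the groups overlapped. The log2 change was 0.47 (SE 0.37, 95% interval -0.41 to 1.36; edgeR's adjusted p = 0.786). It lay between 0.18, without control replicate 2, and 0.75, without control replicate 3. Ctf1 shares 87 bp of exon with Ctf2 on the other strand, which had at most 8 counts in any library.

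Osm (ENSMUSG00000058755; chromosome 11, 4236420 to 4241026, plus strand), the oncostatin M gene of myeloid cells, was counted 8, 15 and 8 times in control and 12, 7 and 18 times in Ang II hearts. The groups overlapped, and the log2 change of 0.19 (SE 0.67) had a 95% interval from -1.42 to 1.79 (edgeR adjusted p = 0.953). No difference was detectable at this depth. The 10 macrophage and monocyte markers summed to 145 to 163 CPM in control and 120 to 246 CPM after Ang II, the highest in Ang II replicate 1. That sum was carried by C1qa and C1qb, chosen after their values were seen, at 86.9 and 81.1 CPM in that heart against at most 39.1 and 41.3 CPM in control hearts, while Cd163 was at 5.70 CPM against at least 10.2 CPM. Without that heart all 10 macrophage markers had a log2 change below 0, beside a median of -0.01 over all genes tested. Of these markers, 3 were lower at p under 0.05 before adjustment by edgeR, against 15.4% of all genes. Neutrophil markers, 7 in number, summed to 4.24 to 12.8 CPM in control and 2.94 to 4.86 CPM after Ang II, with Mpo at 0 in every heart. By edgeR 0 markers of either list were called. At p under 0.05 before adjustment, 1 of 10 macrophage and 1 of 5 tested neutrophil markers were lower, against 7.51% of all genes. Osm in Ang II replicate 1, at 0.276 CPM, was the highest of the 6, beside 0.253 CPM in replicate 3. The part of these cells in the Osm values was not tested.

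Lif (ENSMUSG00000034394; chromosome 11, 4257557 to 4272514, plus strand) lies 16.5 kb from Osm on the same strand. Control hearts held 7, 10 and 0 Lif counts and Ang II hearts 23, 0 and 0. Ang II replicate 1 held all Lif counts of its group. Il6 (ENSMUSG00000025746; chromosome 5, 30013114 to 30019981, plus strand) had counts in only 1 heart of each group, 14 in control replicate 2 and 4 in Ang II replicate 1. For either gene, 3 counts is the limit that a count of 0 allows in a library, for counting error only. No fold or test is given for these genes.

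Socs3 (ENSMUSG00000053113; chromosome 11, 117966079 to 117970047, minus strand), the feedback inhibitor of gp130, had CPM values of 5.36, 13.7 and 13.5 in control and 6.65, 4.59 and 3.63 in Ang II hearts. Control replicates 2 and 3 were the high ones, control replicate 1 lay among the Ang II hearts, and the groups overlapped. The log2 change was -1.13 (SE 0.41, 95% interval -2.10 to -0.16), with an unadjusted p of 0.0281 and edgeR's adjusted p = 0.593. Without Ang II replicate 1 it was -1.40 (SE 0.43, edgeR adjusted p = 0.224), and DESeq2 gave an adjusted p of 0.265 with all 6 hearts. Without control replicate 1 it was -1.46 (edgeR adjusted p = 0.665). With control replicate 2 or 3 or Ang II replicate 3 left out, 0 members stood at p under 0.05 before adjustment by edgeR. On the authors' FPKM values, limma gave 0 members at that level under each of its 4 settings. On the counts with library weights, limma put 2 members at that level, beside 3439 of 16759 genes. Socs3 was at -1.43 (SE 0.37, limma's adjusted p = 0.1) and Lifr at -0.51 (SE 0.16, limma's adjusted p = 0.153) there. By edgeR without Ang II replicate 2, and with the replicate number as a block, 1 member stood at that level. Lifr, not Socs3, had the largest change for its SE in both of these edgeR runs, at -0.73 (SE 0.17) and -0.52 (SE 0.19). Socs3 was at -1.08 (SE 0.50) and -1.08 (SE 0.49).

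In FPKM, Socs3 stood at 1.37, 4.98 and 4.43 in control and 1.78, 1.61 and 1.3 in Ang II hearts. Il6st was 3.29, 1.6 and 1.28 times Socs3 in control and 2.53, 4.50 and 5.76 times in Ang II hearts, with overlapping groups (exact permutation p = 0.2). Socs3 was second to Il6st by mean FPKM in control hearts and came after Il6st, Lifr and Osmr in Ang II hearts. Control replicate 1 also had the highest share of mitochondrial counts, 47.6%, and the highest sum of the 6 red blood cell markers, 2039 CPM, against at least 802 CPM in the other control hearts and 444 to 593 CPM after Ang II. All 6 of these markers were lower in Ang II hearts at p under 0.05 before adjustment, against 7.51% of all genes tested in either direction. DESeq2, which called 1.65% of all genes, called 5 of them lower, and edgeR called 0. Their part in the Socs3 values was not tested.

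**Figure D2:**
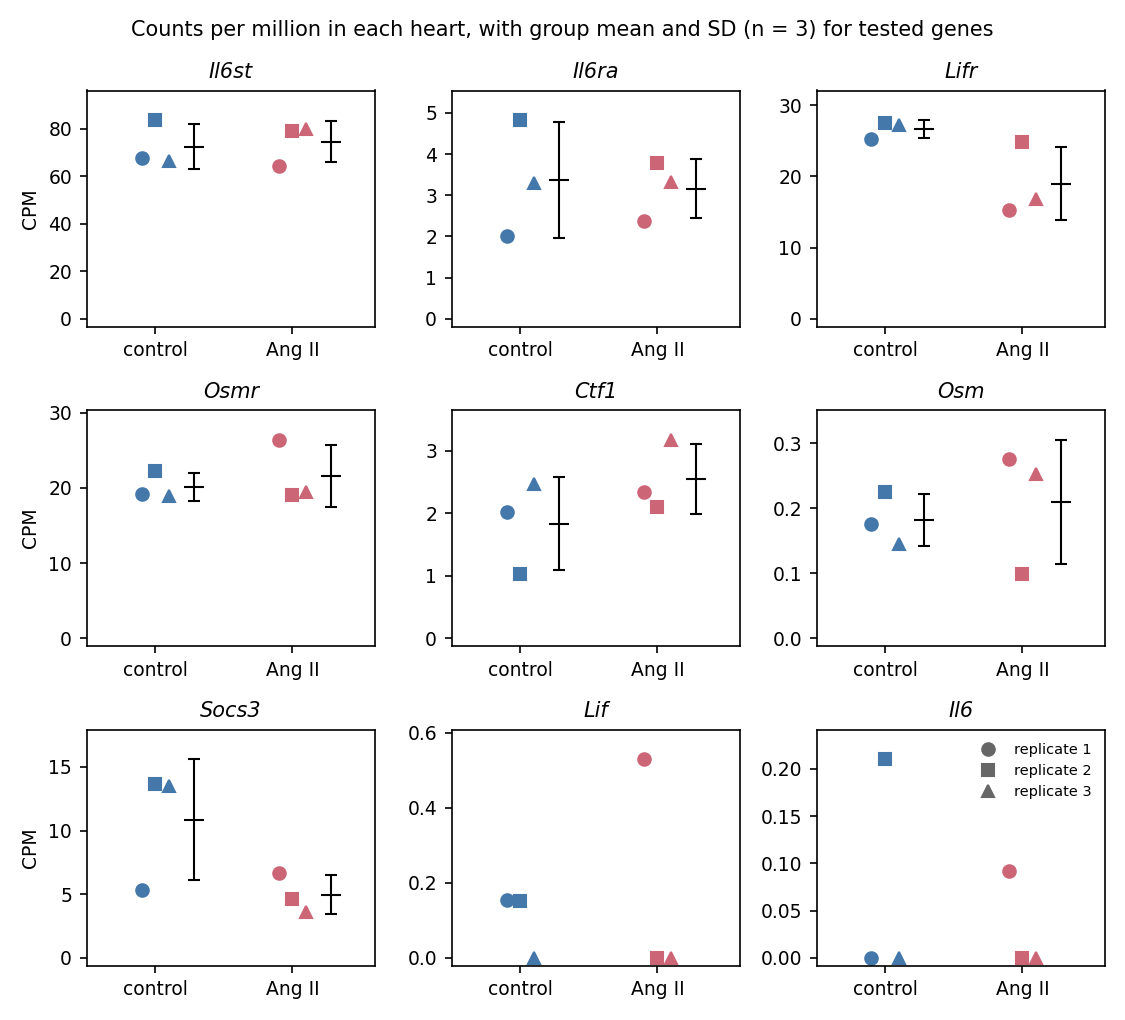
CPM of each gene in each heart, 1 panel per gene, control in blue and Ang II in red, with group mean and SD (n = 3) for the 7 tested genes. Lifr is the gene whose groups do not overlap, and Socs3 in control replicate 1 (5.36 CPM) lies among the Ang II hearts.

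Ordered by mean FPKM, control hearts had Il6st, Socs3, Lifr, Osmr, Ctf1, Il6ra, Osm, Il6 and Lif, and Ang II hearts had Il6st, Lifr, Osmr, Socs3, Ctf1, Il6ra, Osm, Lif and Il6. In control hearts the ranges of neighbours overlapped throughout except between Il6ra and Osm. In Ang II hearts the neighbours Il6st and Lifr, Ctf1 and Il6ra, and Il6ra and Osm were separate, and the others overlapped. The spread of the members within a group differed: over the control hearts the highest CPM was 1.09 times the lowest for Lifr, 1.18 for Osmr and 1.26 for Il6st, against 2.42 for Ctf1 and 2.55 for Socs3.

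**Figure D3:**
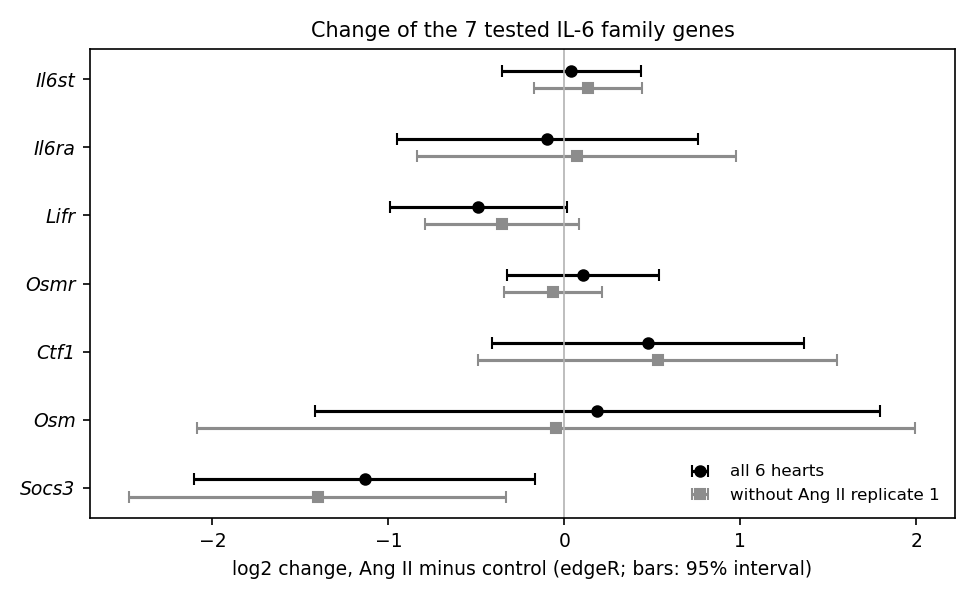
Log2 change (Ang II minus control) of the 7 tested genes by edgeR with 95% intervals, for all 6 hearts (black circles) and without Ang II replicate 1 (grey squares). Socs3 alone has intervals that leave out 0 (-2.10 to -0.16 with all hearts), and these intervals are not adjusted for the number of genes tested.

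Genes whose CPM over the 6 hearts was most like a member's were ranked among 8465 genes by Pearson correlation of log2(CPM + 0.5), as a description over 6 libraries. Fem1b (r = 0.994) and Nceh1 (0.990) were closest to Il6st. Tbk1 (0.996) and Tcf21 (0.983), a transcription factor gene on the fibroblast marker list, were closest to Lifr. Tsc2 (0.997) and Polb (0.992) were closest to Osmr, Lrrc41 (0.989) and Slc12a4 (0.973) to Ctf1, and Mta2 (0.984) and Egln3 (0.981) to Socs3. Tcf21 shared the order of Lifr in the Ang II group, at 2.88, 4.34 and 2.95 CPM against 4.74 to 5.08 CPM in control hearts. The other fibroblast markers of the list, named after their values were seen, were split in Ang II replicate 3, where Lifr was low. There Pdgfra, Col1a2, Dcn, Lum and Postn lay above every control heart, and Col1a1 and Col3a1 below every control heart. In Ang II replicate 1, where Lifr was lowest at 15.2 CPM, every fibroblast marker of the list lay below every control heart. The part of fibroblasts in the Lifr values was not tested. Egln3, a prolyl hydroxylase gene of the oxygen-sensing pathway, shared the low control replicate 1 of Socs3, at 17.8, 29.6 and 26.2 CPM in control and 21.1, 16.3 and 15.8 CPM after Ang II.

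Other ligands and receptors of the family did not pass either. Of 13 genes in that list 8 were tested, with 0 called by edgeR, 1 at p under 0.05 before adjustment and 1 called by DESeq2. Over all genes tested, edgeR put 7.51% at that level and DESeq2 called 1.65%. The median log2 change of the list was -0.29. Il11ra2, which encodes a receptor chain for IL-11, stood at 1.87 ± 0.46 and 1.2 ± 0.45 CPM (log2 fold change -0.69, SE 0.38; edgeR's adjusted p = 0.728).

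Il11ra1, which encodes the α chain that binds IL-11, stood higher per length than every one of the 9 genes in the same heart, and was chosen for naming after its values were seen. Its FPKM was 7.35, 8.98 and 9.77 in control and 9.72, 9.58 and 10.2 in Ang II hearts, against at most 0.587 for Il6ra. In CPM its log2 change was 0.15 (SE 0.17; edgeR's adjusted p = 0.850). Il11ra1 and Il11ra2 are near-identical copies, so reads may be split between them. The ligand Il11 had at most 8 counts in any library.

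Below gp130, 0 of 12 genes of signal transduction were called by edgeR or DESeq2, and the list median was -0.04. Over all genes tested, edgeR called 0.0358% and DESeq2 1.65%. Jak1, the main kinase bound to gp130, was the 1 of 12 at p under 0.05 before adjustment, against 7.51% of all genes tested. It stood at 65.0, 68.4 and 61.4 CPM in control and 75.0, 94.9 and 97.7 CPM after Ang II, with groups that did not overlap, as for 17.2% of all genes (log2 fold change 0.46, SE 0.16; edgeR's adjusted p = 0.583, and 0.067 without Ang II replicate 1). In FPKM its groups overlapped, with control hearts up to 9.98 and Ang II replicate 1 at 8.04. Ptpn11, the phosphatase SHP2 that docks on gp130, stood at 74.9 ± 4.25 and 93.3 ± 21.4 CPM (log2 fold change 0.32, SE 0.20; edgeR's adjusted p = 0.755). Stat3, named after its values were seen, was lowest in Ang II replicate 1, at 26.5 CPM, beside 43.2 and 46.7 CPM in the other Ang II hearts and 39.7, 36.4 and 41.8 CPM in control hearts. Its log2 change was -0.02 (SE 0.23; edgeR's adjusted p = 0.987) and 0.20 (SE 0.10; edgeR's adjusted p = 0.426) without Ang II replicate 1.

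Of 14 other inhibitors of the pathway, with a median log2 change of -0.03, 0 were called by edgeR or DESeq2. Over all genes tested, edgeR called 0.0358% and DESeq2 1.65%. At p under 0.05 before adjustment by edgeR stood 1 inhibitor gene, against 7.51% of all genes tested. That gene was Socs2, a relative of Socs3 best known for limiting growth hormone signalling, at 16.9, 15.6 and 16.8 CPM in control and 27.7, 20.1 and 22 CPM after Ang II. All Ang II hearts were above all controls (log2 fold change 0.50, SE 0.17; edgeR's adjusted p = 0.567). Groups did not overlap for 17.2% of all genes tested. Socs3 had its higher values in control replicates 2 and 3, while its control replicate 1 lay among the Ang II hearts. Socs6 stood at 6.41 ± 2.28 and 4.06 ± 0.37 CPM (log2 fold change -0.66, SE 0.30; edgeR's adjusted p = 0.684).

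Genes that STAT3 induces spread in both directions. Of 25 genes 24 were tested, 17 with a log2 change above 0 and 7 below, with a median of 0.12. By edgeR 0 were called with all 6 hearts, 4 were higher and 4 lower at p under 0.05 before adjustment, and DESeq2 called 2 higher and 2 lower. Over all genes tested, 7.51% stood at p under 0.05 before adjustment by edgeR, DESeq2 called 1.65%, and 8537 of 16759 had a log2 change above 0. The metallothionein gene Mt2, which binds zinc and is also induced by glucocorticoids, stood at 8.99, 4.4 and 5.47 CPM in control and 42.1, 45.5 and 46.4 CPM after Ang II (log2 fold change 2.83, SE 0.29; edgeR's adjusted p = 0.0517). Mt1 stood at 63.3 ± 11.7 and 154 ± 16.4 CPM (log2 fold change 1.28, SE 0.19; edgeR's adjusted p = 0.157). DESeq2 called both higher, with adjusted p = 6.6e-17 for Mt2 and 8.95e-07 for Mt1. Mt2 also passed by limma with the filter on low values (adjusted p 0.00784 to 0.0266), with library weights (0.00239) and by edgeR with no filter on low counts (0.0275), and did not pass with the replicate block (0.285), by limma with no filter (0.0986) or by edgeR with any 1 heart other than Ang II replicate 1 left out (0.163 to 0.421). Without Ang II replicate 1, both passed the test and were higher after Ang II, with edgeR's adjusted p = 0.0336 for Mt2 and 0.0489 for Mt1.

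Further genes of this list at p under 0.05 before adjustment were named after their values were seen. Lrg1 (log2 fold change 0.52, SE 0.16) was above 0, and A2m (-2.58, SE 0.62), Hp (-2.97, SE 0.84), Junb (-1.18, SE 0.36) and Fos (-3.0, SE 1.06) below. A2m was near the floor, with 22, 22 and 38 counts in control and 4, 4 and 7 after Ang II. Its FPKM was at most 0.0897 in any heart, and limma on log2(FPKM + 0.5) with no filter gave a change of -0.14. Fos, an immediate early transcription factor gene, stood at 14.8, 63.7 and 43.9 CPM in control and 0.276, 7.24 and 7.65 CPM after Ang II. Junb stood at 22, 40.5 and 35.6 CPM in control and 21.7, 9.84 and 11.9 CPM after Ang II. In Socs3, Fos and Junb alike, control replicate 1 was the lowest control.

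Genes that act on Il6 mRNA or shed the IL-6 receptor numbered 6, all tested, with 0 called by edgeR, 1 higher and 1 lower at p under 0.05 before adjustment, and 1 called higher and 1 lower by DESeq2. Over all genes tested, 7.51% stood at p under 0.05 before adjustment by edgeR, and DESeq2 called 1.65%. The median log2 change of the list was -0.37. Arid5a, an RNA-binding protein that stabilises Il6 mRNA, stood at 5.08, 2.07 and 2.91 CPM in control and 11.2, 12.4 and 10.7 CPM after Ang II (log2 fold change 1.77, SE 0.33; edgeR's adjusted p = 0.303, DESeq2 adjusted p = 0.000318). Zfp36, which promotes decay of cytokine mRNAs, stood at 46.6, 77.1 and 71.2 CPM in control and 23.1, 33.7 and 36.2 CPM after Ang II (log2 fold change -1.07, SE 0.26; edgeR's adjusted p = 0.447, DESeq2 adjusted p = 0.0302). In CPM the groups of both genes did not overlap, as for 17.2% of all genes. In FPKM those of Zfp36 overlapped, with control replicate 1 at 9.89 and Ang II replicate 3 at 10.8. The sheddase genes Adam10 and Adam17 are in this list and did not reach that level.

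**Figure D4:**
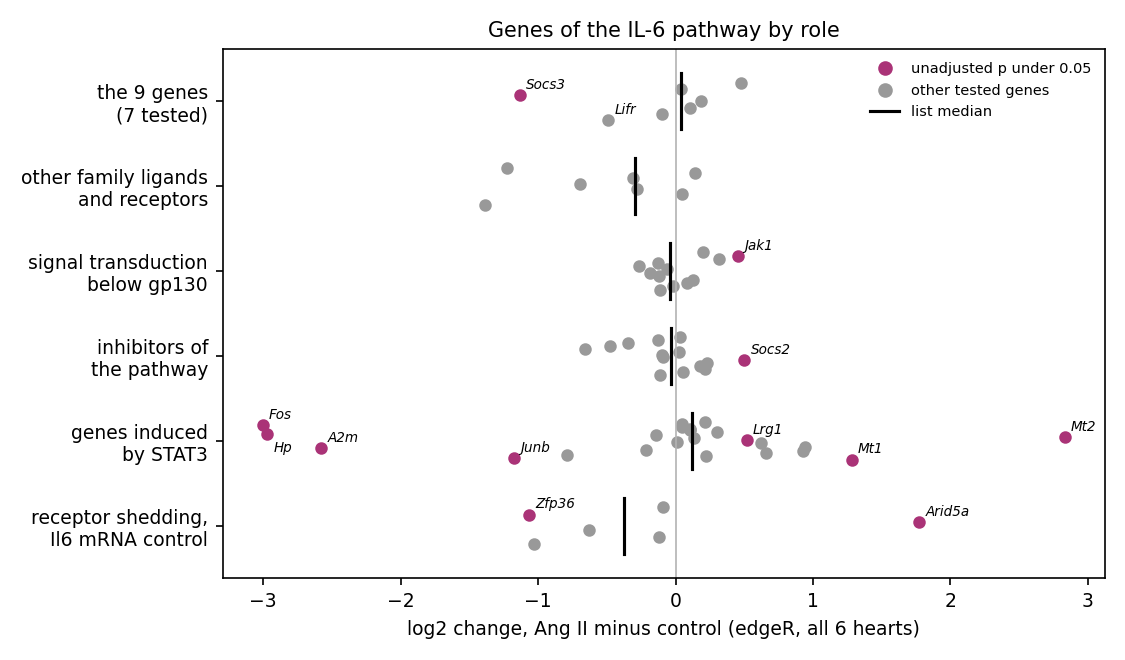
Log2 change (Ang II minus control, edgeR, all 6 hearts) of each tested gene, by role in the pathway, apart from genes not reported here; black bars mark medians of all tested genes of a list and purple points an unadjusted p under 0.05. The medians lie between -0.37 and 0.12, and genes induced by STAT3 spread from -3.0 (Fos) to 2.83 (Mt2).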

How the data were processed

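Poly(A) RNA of 3 control and 3 Ang II hearts was sequenced in pairs, with 1 library per heart and inserts of 300 ± 50 bp, per the labels' protocols. The submitters' processing notes list Bowtie 0.12.2, HISAT2 2.0, StringTie 1.3.0 and the build mm8 without saying what each was for; strandedness is not given in the sources used here. The positions of 86.9% of the 55141 IDs found in GENCODE M21 were its GRCm38 positions, those of the 9 members included. The deposited FPKM values were made by the authors and used as deposited, with 0.0001 read as 0. The deposited estimated counts are whole numbers, which edgeR treats as counts. The titles number the hearts 1 to 3 in each group, and each number is taken here as a separate heart. No label says so outright, and p-values measure only the spread between these samples. If the numbers instead marked repeats of 1 heart, that spread would be technical.

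Counts were tested with edgeR 4.0.16 in R 4.3.3 (TMM scaling, filterByExpr, two-sided) over 16759 genes, with DESeq2 1.42.0 and limma 3.58.1 beside it, all tested on simulated data. Standard errors come from the log2 change and its F statistic. The members and lists were chosen with earlier results of these data known. Named genes are the members, any gene called and the 2 with the smallest p of each pathway list, and, for each member with a mean FPKM of at least 1, the 2 genes with the most similar log2 CPM (predicted and mitochondrial genes left out); others are said to be chosen after their values were seen. Some genes that this rule covers are not reported here, though counts and medians of the lists include them. Figures used matplotlib 3.10.9.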

Additional observations from a re-analysis of the deposited data

How the results depend on the processing

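Under every alternative run, 0 of the tested members were called. These were DESeq2, limma on log2(FPKM + 0.5), with other pseudocounts and with no filter, RLE and upper-quartile scaling, no mitochondrially encoded genes, no filter on low counts, library weights, the replicate block and each heart left out. Of 113 alternative values of the 7 tested members, 103 kept their direction and 10 changed sign, all in Il6ra, Il6st, Osm and Osmr. With library weights Il6ra was 0.0749 and Osmr -0.0253. With 1 heart left out, Il6ra ran from -0.36 to 0.25, Il6st from -0.027 to 0.154, Osm from -0.0463 to 0.531 and Osmr from -0.0636 to 0.189 on the log2 scale. Stat3, outside the members, was 0.00269 by limma on log2(FPKM + 0.5) with or without the filter, 0.00941 with a pseudocount of 1, 0.17 with library weights and -0.17 to 0.20 with 1 heart left out. Socs3 stayed below 0 throughout (-1.46 to -0.74; adjusted p 0.1 to 0.998), as did Lifr (-0.73 to -0.30), and Ctf1 stayed above 0 (0.18 to 0.75).

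Over all genes the 6 calls became 276 by DESeq2, 348 with library weights, 12 with no filter on low counts, 3 by limma with a pseudocount of 0.1 or 1, 2 by limma with no filter, 0 with the replicate block and 0 to 129 with 1 heart left out. At p under 0.05 before adjustment edgeR gave 1258 genes with all hearts, 1104 with the block, 893, 987 and 851 when control replicate 1, 2 or 3 was left out, and 1114 when Ang II replicate 3 was. Over the 5 pathway lists the 0 calls became 7 by DESeq2, 6 with library weights, 1 by limma under each of its 4 settings, 1 with no filter on low counts and 0 to 3 with 1 heart left out. Causes were not tested. Deviations of same-numbered hearts from their group means correlated at 0.08, 0.11 and -0.04 for numbers 1, 2 and 3. Those of differently numbered hearts correlated at -0.13 to 0.08. These values cannot show whether the numbers pair the hearts, since each deviation is from a mean of only 3. With the replicate block Socs3 had a log2 change of -1.08. With 3 hearts a group, changes of the size of the wider intervals given, such as that of Osm, could not be resolved, and intervals and floors cover counting error and spread between these hearts only.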
